A study of Rattus norvegicus with 12 samples.

Results

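The 10 genes described here are Gp2, Guca2b, Fcgbp, Pigr, Scgb3a1, Ffar4, Clca4, Bcas1, Galnt6 and Alpl, a set of mucus, secretory and transport genes of lining epithelium, out of 26554 gene names on the array. They were chosen by their array levels in whole cervix, which were much higher in late-pregnant than in non-pregnant rats, with no numerical limit stated. Their difference in whole cervix is therefore given as a description only. The question put to them was whether the cells left after removal of macrophages (Mφs) carried the same genes. All 10 were measured, each by 1 probe except Bcas1, which had 2. Ffar4 carries its former name, Gpr120, on the array.

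The samples were dispersed cervix cells of Sprague Dawley rats, with 3 rats in each of 4 groups and 1 array for each rat. Pregnant rats were taken at day 21 after breeding (D21), close to term, and non-pregnant (NP) rats in proestrus. In both states the animals were flushed with saline before the cervix was trimmed, minced and digested with collagenase, and no drug or genetic change is given for any group. For the whole cervix groups all recovered cells were frozen (D21 rats 5, 6 and 7, NP rats 8, 9 and 10). For the Mφ-depleted groups, cells of other rats bound by ED1, an antibody to an antigen of rat Mφs, were pulled out on magnetic beads and the remainder was used (D21 rats 1, 2 and 4, NP rats 5, 6 and 7). Depleted samples thus differed from whole samples by the added handling as well as by the cells removed, and these cannot be told apart.

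The canal of the cervix is lined by columnar cells that secrete mucus, which meet a stratified squamous lining toward the vagina. Mucus is built from large mucin proteins that carry many sugar chains and is held together with smaller partner proteins. Near term this mucus fills the canal and separates the uterus from the vagina. The genes here take different parts in such a lining: Fcgbp encodes a mucus protein that binds the Fc part of IgG, Galnt6 an enzyme that starts O-linked sugar chains, Gp2 a membrane glycoprotein of secretory granules, Scgb3a1 a small secreted protein of the secretoglobin family, and Guca2b uroguanylin, a peptide that acts on epithelial guanylate cyclase. Pigr carries polymeric IgA across the cell, Clca4 belongs to the calcium-activated chloride channel regulators, Ffar4 is a receptor for long-chain fatty acids, Alpl is tissue-nonspecific alkaline phosphatase, and Bcas1 is known best from myelinating glia and from carcinomas.

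Each level below is what a 60-base probe detected. The probes of the genes with the clearest rise in Mφ-depleted cervix, Gp2 and Fcgbp, and of Pigr, which did not rise there, are shown 5′ to 3′ in lower case with no part marked.
Gp2: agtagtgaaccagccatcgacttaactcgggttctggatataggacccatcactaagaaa
Fcgbp: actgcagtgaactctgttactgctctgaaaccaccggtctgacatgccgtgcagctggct
Pigr: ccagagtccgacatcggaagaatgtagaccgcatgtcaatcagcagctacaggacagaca
On the rn4 build of the scanner files the Gp2 probe lies on the minus strand at chr1:177714482-177714541 and the Fcgbp probe on the plus strand at chr1:83211975-83212034. The Pigr probe lies on the plus strand between chr13:43802502-43802936, a stretch of 435 bases for a 60-base probe, so it reads across a gap in the genome. The probe of Fcgbpl1, a neighbouring gene related to Fcgbp and written RGD1311906 on the array, lies at chr1:83264811-83264870 on the same strand. Whether transcripts of either gene bind the probe of the other was not tested.

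Levels are log2 intensities relative to the 75th percentile of the same array, so a level of 0 equals that percentile and a difference of 1 is 2-fold. A probe flagged by the scanner software as not well above background on an array has only an upper bound there. The 12 arrays had 75th percentiles of 289.8 to 1170.6 intensity units and 44.9% to 61.8% of probes well above background. The dimmest array was Mφ-depleted NP rat 7 and the brightest Mφ-depleted D21 rat 1, so weak probes had a higher floor in the former. The mean level of 15 Mφ marker genes was 0.41 to 1.26 in the 6 whole samples and −3.95 to −2.86 in the 6 depleted samples, where Adgre1, Mrc1 and Mpeg1 were not well above background on any array. C1qb, Aif1, Cd14 (means of 2.90 and 2.73 in depleted D21 and NP) and Cd68, which encodes the ED1 antigen (0.89 and −0.39), were still detected in all 6 depleted samples. In whole D21 and NP cervix the means were 3.16 and 2.50 for Cd14 and 0.74 and 0.16 for Cd68. Cd68 at D21 and Cd14 in NP were thus not lower after depletion, whereas C1qb (3.92 and 3.64 whole, 0.15 and −1.49 depleted) was. Columnar epithelial markers were detected in all 12 samples.

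In Mφ-depleted cervix 6 of the 10 genes rose from NP to D21: Gp2, Guca2b, Fcgbp, Scgb3a1, Ffar4 and Alpl. A rise here means at least 2-fold with an unadjusted p under 0.01 in limma, the limits of the study's methods. For comparison, 3.89% of the 13396 genes tested in these samples were called higher at that limit and 1.21% were called lower. After Benjamini-Hochberg adjustment over all genes tested, Gp2 and Fcgbp were the members with an adjusted limma p under 0.05, against 1.26% of all genes in that direction. Bcas1, Galnt6, Pigr and Clca4 were not called in either direction. The 3 D21 rats all lay above the 3 NP rats for the same 6 genes, as they did for 9.54% of all genes. The median difference of the 10 genes was 2.86 on the log2 scale, or 2.23 with Guca2b and Scgb3a1 set to their lower bounds, and the median of all genes was 0.02. Of the 10 genes, 6 were well above background on all 6 depleted arrays, and 4 (Gp2, Guca2b, Scgb3a1 and Ffar4) entered the test through the D21 arrays alone, so that a difference in them was built into the filter.

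**Figure D1:**
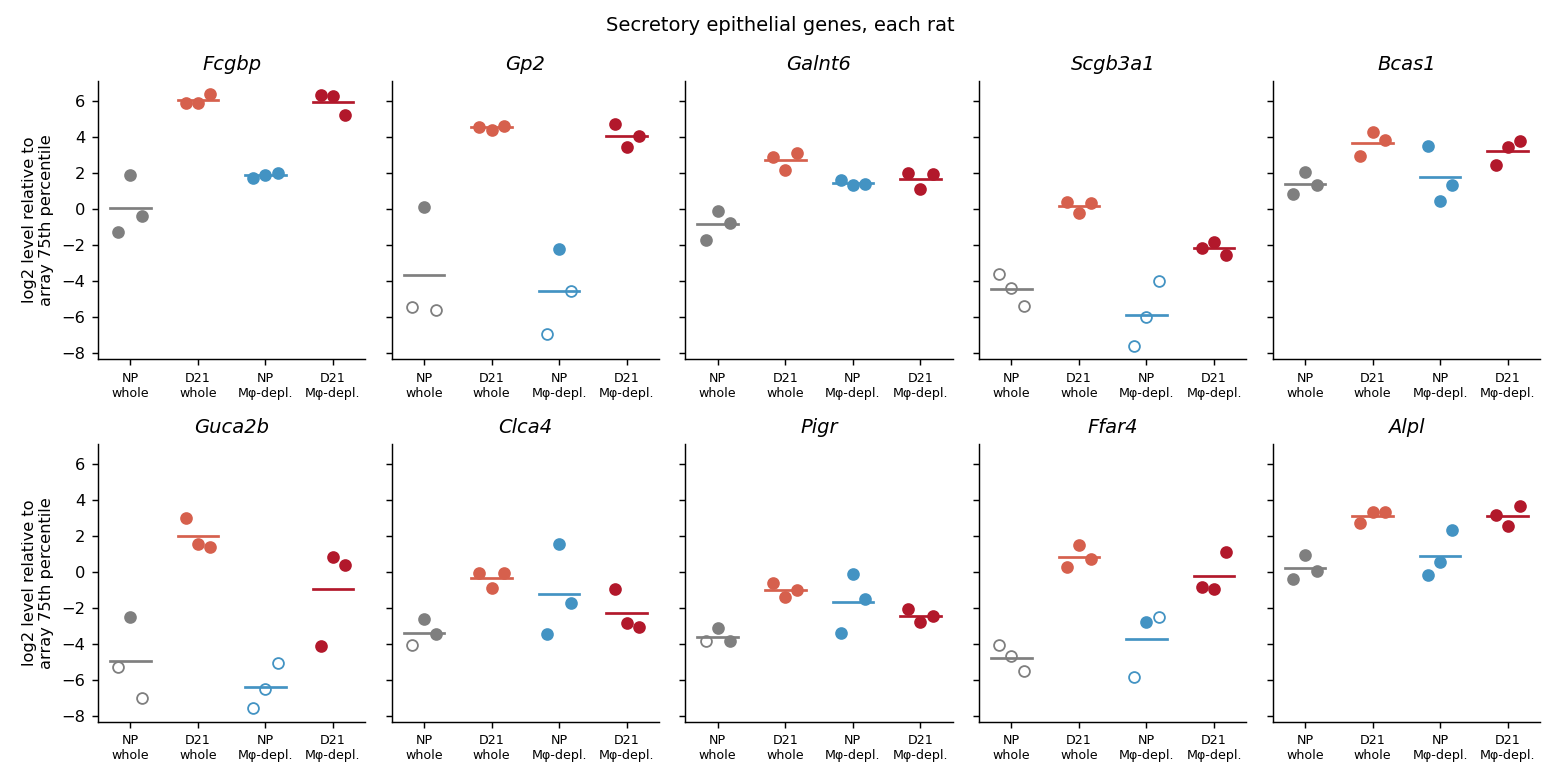
Log2 level of each of the 10 genes, relative to the array's 75th percentile, in every rat of the 4 groups, with rats in the order of their numbers and a line at the group mean. Filled points were well above background and open points were not. In Mφ-depleted cervix the D21 rats of Gp2, Guca2b, Fcgbp, Scgb3a1, Ffar4 and Alpl lay above all 3 NP rats. The groups overlapped for Bcas1 (brighter probe shown), Galnt6, Pigr and Clca4.

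Fcgbp rose clearly in depleted cervix. Its levels were 6.31, 6.29 and 5.24 in Mφ-depleted D21 rats 1, 2 and 4 and 1.71, 1.89 and 2.00 in Mφ-depleted NP rats 5, 6 and 7. In whole cervix they were 5.91, 5.91 and 6.41 at D21 and −1.27, 1.91 and −0.40 in NP rats 8, 9 and 10. The D21 rats of both preparations lay together and far above every NP rat, and the 3 depleted NP rats were close to each other while whole NP rat 9 stood above the other two. The rise in depleted cervix was 4.08 ± 0.38 (SE, n = 3) on the log2 scale, a 16.9-fold change (limma adjusted p = 0.0107). The difference was 3.24 between the D21 and NP rats on slide 1 and 4.49 on slide 3, the slides that held both groups. Over the other limma settings Fcgbp stayed called, with adjusted p from 0.000174 to 0.127.

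Gp2 rose from at or near background in NP rats. It stood at 4.74, 3.43 and 4.07 in the depleted D21 rats and at −6.94, −2.20 and −4.53 in the depleted NP rats, of which rat 6 alone was well above background. Whole cervix gave 4.56, 4.40 and 4.64 at D21 and −5.46, 0.13 and −5.59 in NP, where rat 9 alone was well above background. Thus the D21 rats were alike in both preparations, while NP rats ranged from undetected to a clear signal. The rise in depleted cervix was 8.63 ± 1.05 (SE, n = 3) on the log2 scale (limma adjusted p = 0.016), with a 95% confidence interval of 6.21 to 11.06. Because probes near background set 2 of its 3 NP values, the size of this difference depended on background handling: it was 6.03 with the normexp correction. Within slides it was 8.60 on slide 1 and 8.00 on slide 3.

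Scgb3a1 was measured above background at D21 only. Depleted D21 rats had −2.17, −1.83 and −2.54 and depleted NP rats −7.63, −5.98 and −3.97, none of the latter well above background. Whole D21 cervix had 0.38, −0.22 and 0.31 and whole NP cervix −3.63, −4.41 and −5.36, again none well above background. Scgb3a1 was therefore detected in all 6 D21 rats and in no NP rat. The fitted rise in depleted cervix was 3.69 ± 0.82 (SE, n = 3; limma adjusted p = 0.0891), and since the NP values are upper bounds the rise was at least 4.72-fold. The call was lost without D21 rat 2 (3.51) and with the normexp correction (1.76).

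Guca2b behaved similarly in NP rats but varied among depleted D21 rats. The levels were −4.13, 0.80 and 0.40 in depleted D21 rats 1, 2 and 4, against −7.58, −6.52 and −5.09 in depleted NP rats, none of which was well above background. In whole cervix they were 2.97, 1.54 and 1.38 at D21 and −5.31, −2.51 and −7.04 in NP, with rat 9 alone above background. Depleted D21 rat 1 was thus far below its group but still above every depleted NP rat. The fitted rise was 5.42 ± 1.27 (SE, n = 3; limma adjusted p = 0.103). With the NP values set to the lowest signal above background, the rise was at least 10.9-fold. The call was lost without D21 rat 2 (4.53), D21 rat 4 (4.73) or NP rat 5 (4.83) and with array weights (2.84).

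Ffar4 stood at −0.83, −0.94 and 1.11 in depleted D21 rats and at −5.84, −2.81 and −2.49 in depleted NP rats, of which rat 6 alone was well above background. Whole cervix gave 0.27, 1.49 and 0.70 at D21 and −4.07, −4.69 and −5.54 in NP, with no NP rat above background. The receptor was detected in every D21 rat, and the groups did not overlap in either preparation. Its rise in depleted cervix was 3.49 ± 0.94 (SE, n = 3; limma adjusted p = 0.144). That call was lost without D21 rat 2 (3.85) or D21 rat 4 (2.83) and with the percentile of detected probes (3.33).

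Alpl was well above background in all 12 rats. Its levels were 3.18, 2.52 and 3.64 in depleted D21 rats and −0.18, 0.53 and 2.34 in depleted NP rats, beside 2.73, 3.31 and 3.32 in whole D21 and −0.38, 0.92 and 0.05 in whole NP cervix. NP rat 7 of the depleted group lay just below the lowest D21 rat, rat 2, and the groups did not overlap. The rise in depleted cervix was 2.22 ± 0.65 (SE, n = 3), or 4.65-fold (limma adjusted p = 0.186). It was the least stable of the 6 calls: it was lost on leaving out any depleted rat other than NP rat 7 (1.68 to 2.52) and with quantile normalization (2.09), normexp (1.76), the percentile of detected probes (2.06) or no background filter (2.22).

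The other 4 genes were not called in Mφ-depleted cervix. Galnt6 had 2.02, 1.09 and 1.97 in depleted D21 rats and 1.60, 1.32 and 1.41 in depleted NP rats, a difference of 0.25 ± 0.36 (SE, n = 3; limma adjusted p = 0.789). Its 95% confidence interval, −0.57 to 1.07, left out a 2-fold fall and reached slightly past a 2-fold rise. In whole cervix, by contrast, D21 rats had 2.87, 2.18 and 3.09 and NP rats −1.70, −0.10 and −0.75. The depleted NP rats were thus all above every whole NP rat. With the normexp correction the depleted difference changed sign, to −0.09.

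Bcas1 had 2.44, 3.45 and 3.80 in depleted D21 rats and 3.51, 0.45 and 1.34 in depleted NP rats. NP rat 5 lay among the D21 rats, and the other two lay below them. The difference was 1.46 ± 0.76 (SE, n = 3; limma adjusted p = 0.468), with an interval of −0.30 to 3.23, and without NP rat 5 it was 2.33 and was called. Whole cervix had 2.94, 4.27 and 3.84 at D21 and 0.83, 2.08 and 1.32 in NP. The second Bcas1 probe gave larger differences, of 2.31 in depleted and 2.96 in whole cervix. On that probe the depleted groups did not overlap, with 2.75, 3.34 and 2.89 at D21 and 2.24, −0.64 and 0.43 in NP. With both probes averaged the depleted difference was 1.89 and was not called. A rise of Bcas1 is thus not excluded.

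Pigr and Clca4 had lower means at D21 than in NP after depletion, and neither difference passed the test. Pigr had −2.07, −2.80 and −2.48 in depleted D21 rats and −3.43, −0.13 and −1.54 in depleted NP rats, a difference of −0.75 ± 0.75 (SE, n = 3; limma adjusted p = 0.686; 95% confidence interval −2.49 to 0.98). Clca4 had −0.95, −2.87 and −3.05 at D21 and −3.46, 1.55 and −1.76 in NP, a difference of −1.07 ± 1.18 (SE, n = 3; limma adjusted p = 0.722; 95% confidence interval −3.81 to 1.67). NP rat 6 was the highest for both genes and above all depleted D21 rats. Without that rat the differences were 0.03 for Pigr and 0.32 for Clca4. In whole cervix Pigr had −0.64, −1.38 and −1.02 at D21 and −3.87, −3.11 and −3.86 in NP, and Clca4 had −0.07, −0.92 and −0.09 at D21 and −4.06, −2.65 and −3.48 in NP.

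**Figure D2:**
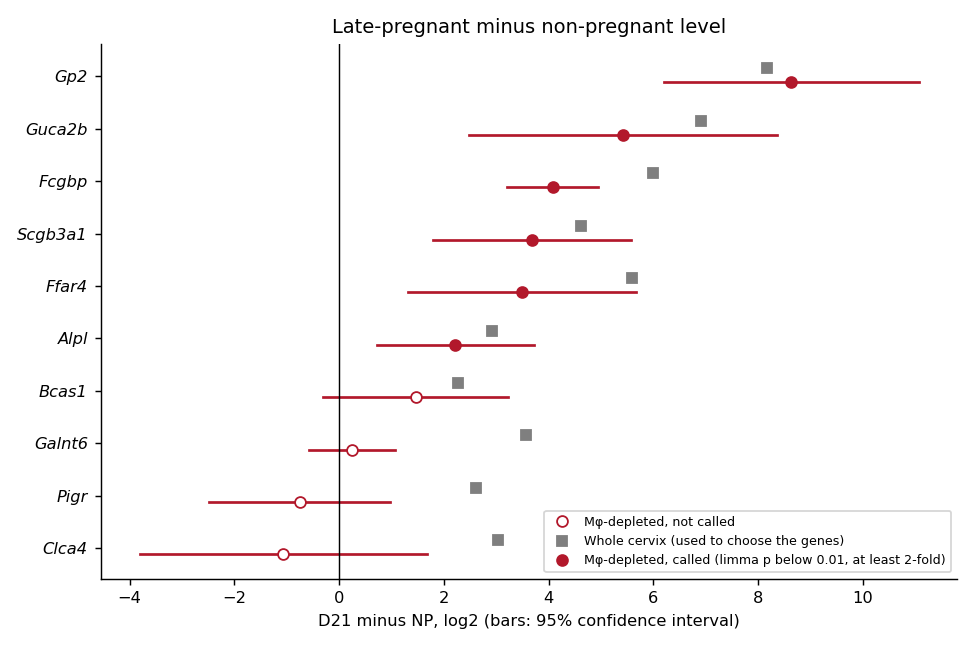
D21 minus NP difference of each gene on the log2 scale, in Mφ-depleted cervix (circles, with the 95% confidence interval from limma, filled where called) and in whole cervix (squares, the values that chose the genes and are shown without error). The depleted differences run from 8.63 for Gp2 to −1.07 for Clca4, and all 10 whole-cervix differences lie between 2.27 and 8.17.

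By construction all 10 genes were higher at D21 in whole cervix. The differences ran from 2.27 for Bcas1 to 8.17 for Gp2, with a median of 4.09, in a comparison in which 6.48% of 14042 genes were called higher. Whether the depleted difference of any gene was smaller than its whole-cervix difference was not tested, since the whole arrays chose the genes. Placed side by side, the whole and depleted differences were 8.17 and 8.63 for Gp2, 6.00 and 4.08 for Fcgbp, and 2.92 and 2.22 for Alpl. They were 3.56 and 0.25 for Galnt6, 2.61 and −0.75 for Pigr, and 3.04 and −1.07 for Clca4.

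Levels in depleted samples were also set against whole samples of the same state. At D21 the means of all 10 genes were higher in whole than in depleted cervix, by 0.01 for Alpl, 0.13 for Fcgbp, 0.45 for Gp2 and 0.46 for Bcas1 up to 1.93 for Clca4, 2.33 for Scgb3a1 and 2.94 for Guca2b on the log2 scale. For 5 genes (Guca2b, Pigr, Scgb3a1, Clca4 and Galnt6) the 3 whole D21 rats all exceeded the 3 depleted D21 rats. In NP rats the order was mixed. There 7 of the 10 genes had higher means in depleted cervix, with whole minus depleted differences of −2.29 for Galnt6, −2.17 for Clca4, −1.92 for Pigr and −1.79 for Fcgbp, and Galnt6 was the gene without overlap. Of all genes, 21.3% were higher in whole than in depleted cervix without overlap at D21 and 24.1% were lower so in NP. The median whole minus depleted difference of all genes was −0.06 at D21 and −0.04 in NP. These values are a description. Genes chosen as high in whole D21 and low in whole NP rats lean toward these orders by that choice. All 3 whole D21 arrays were on slide 2, and the depleted D21 arrays were on slides 4, 3 and 1. Slide and preparation therefore cannot be told apart at D21. In pooled cells, fewer cells of a type and less RNA per cell cannot be told apart.

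The order of the NP rats differed between the preparations. In whole cervix NP rat 9 had the highest level of 8 of the 10 genes, all except Scgb3a1 and Ffar4, which no whole NP rat expressed above background. Rat 9 also stood lowest among NP rats in the mean of 11 squamous markers (1.34, against 3.05 and 3.07 in rats 8 and 10) and highest in that of 12 columnar markers (2.36, against 1.73 and 2.14). In depleted NP samples no rat led in this way: rat 7 was highest for 5 genes, rat 6 for 3 and rat 5 for 2, and rat 5 was lowest for 8. The spread between the highest and lowest rat had a median over the 10 genes of 3.18 in depleted NP and 1.54 in whole NP rats, against 1.22 in depleted D21 and 0.80 in whole D21 rats. Of the 30 values of the 10 genes in each group, 12 in whole NP and 10 in depleted NP rats were not well above background, and none in either D21 group; the part of such values in the spread was not tested.

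The partners of these genes gave a mixed picture in Mφ-depleted cervix. The lists below were measured on the same 6 arrays, and each member was read against the 3.89% of all genes called higher. Some list genes also entered the test through the arrays of 1 group alone, which builds a difference into the filter. Among the goblet and mucus cell genes these were Ern2, Tff2 and Foxa3, through the D21 arrays. Of 14 goblet and mucus cell genes tested, 3 rose and none fell, with a median difference of 2.08. These were Muc5b (3.67; limma adjusted p = 0.0339), a gel-forming mucin, Fcgbpl1 (3.77; limma adjusted p = 0.0189), and Ern2 (3.17; limma adjusted p = 0.191), a stress sensor of mucus-producing cells. Fcgbpl1 had 7.90, 8.06 and 6.45 in depleted D21 rats and 3.23, 4.09 and 3.76 in depleted NP rats, without overlap, as for Fcgbp. Muc2, Muc5ac and Muc16 were not well above background in whole D21 cervix.

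Of 15 other genes of mucin-type O-glycosylation tested beside Galnt6, Galnt4 alone rose (1.59; limma adjusted p = 0.0963), and the median was 0.51. Galnt12, another enzyme that starts such chains, differed by 0.58, and C1galt1, which extends them, and its chaperone C1galt1c1 by 0.36 and 0.15. None of these 3 genes was called. Around Pigr, Ccl28, a chemokine that draws IgA plasma cells, differed by 0.08 and was not called. Jchain, which joins IgA into the form that Pigr carries, was not well above background in any of the 12 rats, and the same was true of Tnfrsf17, a receptor of plasma cells.

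Around Guca2b and Clca4, 1 of 9 genes tested for uroguanylin signalling and anion secretion rose and the median was −0.69. The gene that rose was Clca1 (3.40; limma adjusted p = 0.0951), which encodes a secreted mucus protein. Gucy2c, the receptor of uroguanylin, was not well above background in any rat. Prkg2, a cyclic GMP-dependent kinase, was well above background in all 3 whole D21 rats (mean −1.16) and in 1 of 3 depleted D21 rats, and in no NP rat of either preparation. The chloride channel Cftr differed by −1.42 in depleted cervix and was not called. Clca4l, which lies near Clca4 on chromosome 2, was called lower at D21 in depleted cervix (−5.38 ± 1.22, SE, n = 3; limma adjusted p = 0.0956), with −4.73, −4.53 and −4.27 at D21 and 0.30, 3.99 and −1.70 in NP. As with Clca4 itself, NP rat 6 was the highest. Clca4l entered the test through the NP arrays alone, so that a difference was built into the filter, and depleted D21 rat 4 was not well above background. In whole cervix NP rat 10 alone was well above background, and the difference was −0.82.

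Of 4 other secretoglobin genes tested beside Scgb3a1, Scgb1c1 rose (4.35; limma adjusted p = 0.0189). Scgb2a1 had a larger difference that was not called (5.28; limma adjusted p = 0.267), and Scgb1a1 differed by −2.23. The remaining free fatty acid receptors, Ffar1, Ffar2 and Ffar3, did not reach the level needed for the test, and neither did Gpr84 or Gpr119. None of 8 genes tested for phosphate handling, listed beside Alpl, was called, and neither was Cuzd1, which like Gp2 has a zona pellucida domain, Ly6d, which has a lipid anchor, or the membrane protein Prom1.

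**Figure D3:**
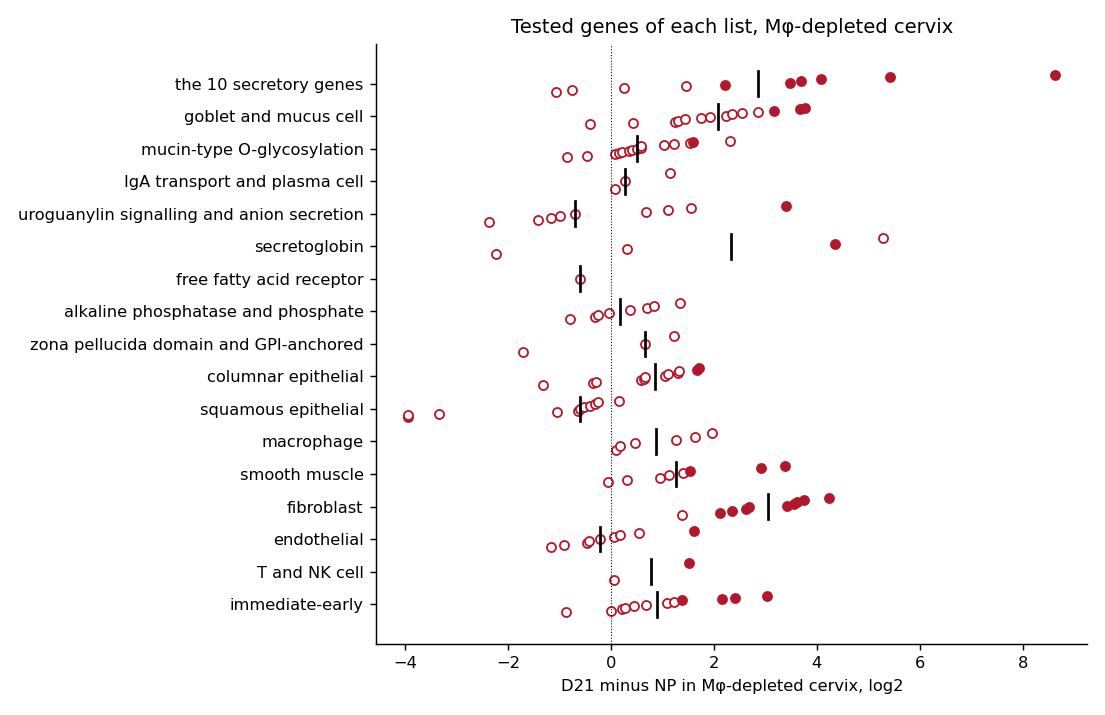
D21 minus NP difference in Mφ-depleted cervix on the log2 scale for every tested gene of each list, filled where called (unadjusted limma p under 0.01 and at least 2-fold), with a bar at the list's median. The medians are 2.86 for the 10 secretory genes, 2.08 for goblet and mucus cell genes, 0.86 for columnar and −0.60 for squamous epithelial markers and 3.05 for fibroblast markers.

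Markers of several cell types moved with these results. The mean of 12 columnar epithelial markers was 3.98 to 4.02 in depleted D21 and 3.01 to 3.52 in depleted NP rats, and 3.68 to 3.85 in whole D21 and 1.73 to 2.36 in whole NP rats. In depleted cervix 2 of these 12 markers rose, Krt18 (1.68; limma adjusted p = 0.115) and Cldn4 (1.71; limma adjusted p = 0.0958), and none fell, whereas Epcam differed by −0.28. Of 11 squamous markers tested Krt4 fell (−3.93; limma adjusted p = 0.0656) and none rose, with list means of 2.26 to 3.70 in depleted D21 and 3.32 to 4.77 in depleted NP rats. Of 10 fibroblast markers 9 rose, including Col1a1 (3.76) and Pdgfra (3.55), with means of 2.73 to 3.40 in depleted D21 and −0.33 to 0.52 in depleted NP rats, and 4.09 to 4.56 over the 6 whole samples. Of 8 smooth muscle markers tested 3 rose, and of 12 immediate-early genes tested 4 rose, among them Egr1 (2.15; limma adjusted p = 0.039). Of 6 Mφ markers that could be tested none was called. The part of these shifts in the differences of the 10 genes was not tested. Each array was also centred on its columnar markers instead of its 75th percentile, an alternative chosen after seeing the data. Gp2 (7.95), Guca2b (4.74), Fcgbp (3.40), Scgb3a1 (3.01) and Ffar4 (2.81) were then called higher, as were 1.66% of all genes. Alpl (1.54) was not, and Galnt6 changed sign to −0.43. This centring is no test of the part of columnar cell content.

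**Figure D4:**
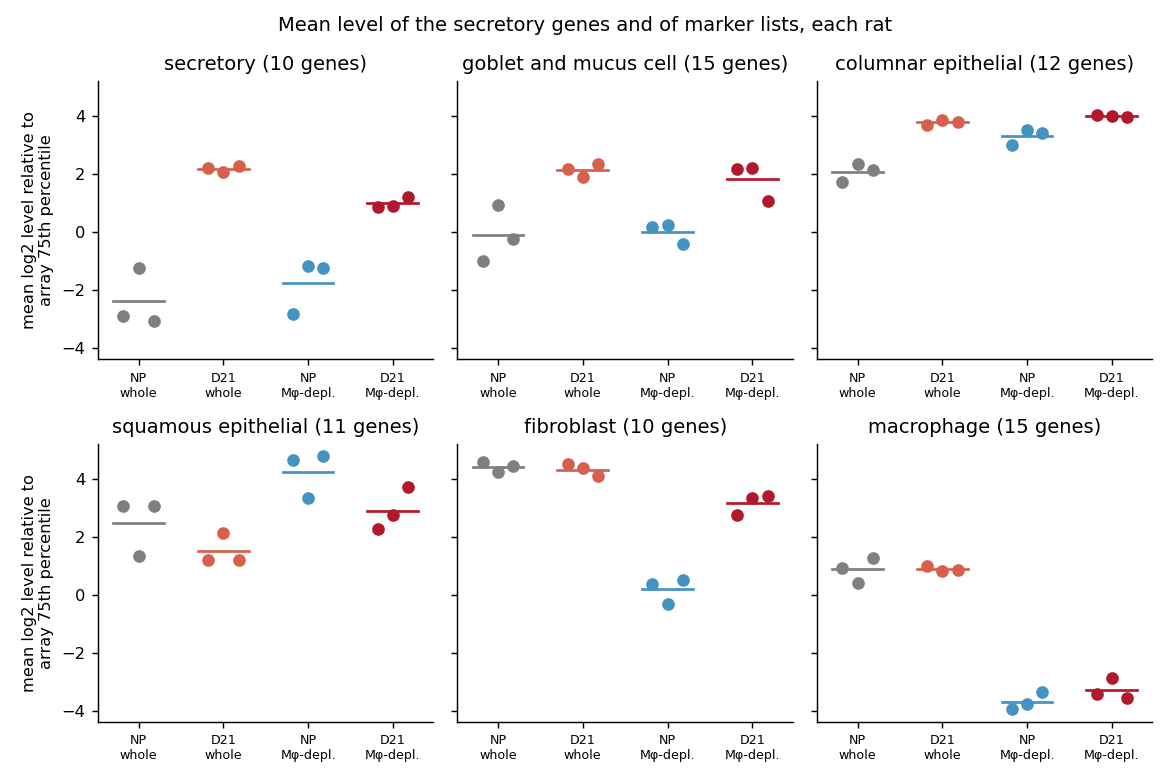
Mean log2 level, relative to the array's 75th percentile, of the 10 secretory genes and of 5 marker lists in every rat, with a line at the group mean. The secretory genes lay at 0.85 to 1.22 in depleted D21 and −2.82 to −1.19 in depleted NP rats, while fibroblast markers were lowest in depleted NP rats and Mφ markers were low in both depleted groups.

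Promoters of 9 of the 10 genes were read from RefSeq (GRCr8; 250 bases before and 50 after the start of each gene). They were searched on both strands for a TATA box (TATAAA), an ETS site of the kind bound by epithelial ETS factors (AGGAAGT), a forkhead site (TGTTTAC) and a STAT site (TTCNNNGAA). The ETS letters occurred in 4 of the 9 promoters, those of Fcgbp, Scgb3a1, Ffar4 and Clca4, and in 8.41% of 33469 promoters. TATAAA occurred in Gp2 and Galnt6 and in 14.2% of all promoters. In Galnt6 these letters lay on the opposite strand, 248 bases before the start. No promoter of the set held the forkhead or STAT letters, which occurred in 3.78% and 8.87% of all promoters. The promoters of Fcgbp and Scgb3a1 are shown because the ETS letters there run on into the same 5 bases. The resulting 12 letters, AGGAAGTTGGCT, are the longest run with the ETS letters that these promoters share. Their presence in both was therefore fixed by that choice. They were found in 8 of the 33469 promoters, these 2 included. That of Gp2 is shown for its TATAAA. Capitals mark the matches.
Fcgbp: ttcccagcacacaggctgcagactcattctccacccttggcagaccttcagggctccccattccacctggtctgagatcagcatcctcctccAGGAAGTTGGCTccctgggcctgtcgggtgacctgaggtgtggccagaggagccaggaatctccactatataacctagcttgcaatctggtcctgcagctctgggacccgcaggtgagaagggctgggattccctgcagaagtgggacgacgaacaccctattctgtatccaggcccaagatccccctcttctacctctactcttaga
Scgb3a1: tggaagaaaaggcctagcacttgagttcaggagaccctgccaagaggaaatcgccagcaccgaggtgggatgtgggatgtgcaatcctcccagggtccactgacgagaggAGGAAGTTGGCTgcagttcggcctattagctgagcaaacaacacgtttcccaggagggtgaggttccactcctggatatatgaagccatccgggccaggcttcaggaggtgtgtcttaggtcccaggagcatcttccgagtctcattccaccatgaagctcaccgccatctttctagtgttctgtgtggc
Gp2: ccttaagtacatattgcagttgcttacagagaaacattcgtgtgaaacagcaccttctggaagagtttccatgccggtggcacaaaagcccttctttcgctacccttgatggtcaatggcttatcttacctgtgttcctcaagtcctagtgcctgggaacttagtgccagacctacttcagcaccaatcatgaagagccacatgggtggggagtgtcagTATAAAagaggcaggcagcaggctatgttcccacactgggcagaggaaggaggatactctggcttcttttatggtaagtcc
They lie at chr1:92502519-92502818 on the plus strand (Fcgbp), chr10:34468916-34469215 on the plus strand (Scgb3a1) and chr1:183243905-183244204 on the minus strand (Gp2). The matches begin 158 bases before the start in Fcgbp, 140 in Scgb3a1 and 31 in Gp2. Of the 4 genes with the ETS letters, Fcgbp, Scgb3a1 and Ffar4 rose in depleted D21 cervix and Clca4 did not, and Gp2, Guca2b and Alpl rose without them.

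The genes whose pattern was most like the mean of the 10 were found by Pearson correlation, a measure that here follows mainly the step between D21 and NP. Over the 6 depleted arrays the 5 highest among 9956 genes were Pyurf (r = 0.993), Fes (0.993), Pygb (0.987), Galnt4 (0.987) and Gspt2 (0.983). Over all 12 arrays, among 10771 genes, they were Igsf5 (0.961), Galnt4 (0.957), Pacsin2 (0.957), F3 (0.957) and Elapor1 (0.955). Galnt4 was the gene named in both. Its D21 minus NP difference was 1.59 in depleted and 2.28 in whole cervix. Of the others from the depleted arrays, Pyurf was lower at D21 in whole cervix (0.65, against 1 in NP). Whole-cervix means at D21 and in NP were 0.3 and −0.23 for Fes, 2.07 and 1.53 for Pygb and −2.71 and −2.86 for Gspt2.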

How the data were processed

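RNA of dispersed rat cervix cells was hybridised to 12 one-colour Agilent arrays of 60-base probes, with 3 rats in each of 4 groups taken from the sample labels. Per the file headers, the deposited intensity values were made with Feature Extraction 9.5.3.1, which subtracts background, and positions refer to rn4. The authors also deposited a ratio of each signal to the array's 75th percentile, which was used as an alternative, and flags for background and outliers. Here, control spots and outlier spots were left out, spots of a probe were averaged, and log2 intensity minus the array's 75th percentile was used. Of 30367 probes, 17328 (57.1%) were named through an accession. A further 717 were given the current symbol of an older name, and the rest kept the name in the files. For genes with more than 1 probe, the brightest probe over all arrays was used.

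D21 and NP were compared in the 6 Mφ-depleted arrays with limma 3.58.1 in R 4.3.3 for genes that passed the scanner's background flag in each rat of at least 1 group. A call was an unadjusted p under 0.01 and 2-fold, with Benjamini-Hochberg adjusted p-values over all genes tested. The methods' t-test was an alternative. The other comparisons use the whole arrays that chose the genes and were not tested. The number of arrays limits precision: an exact permutation test of 3 against 3 rats cannot give less than 0.1. The rats were separate animals. The scripts were tested on simulated data. The 10 genes and all lists were chosen with earlier results of these data known. Genes outside the set are named where they were called, define a cell type or correlate best with the set; Prkg2, Scgb2a1 and other uncalled genes of the lists were named after their values were seen.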

Additional observations from a re-analysis of the deposited data

How the results depend on the processing

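In Mφ-depleted cervix 521 genes were called higher and 162 lower at D21, 6 of the former among the 10 secretory genes. With the methods' t-test these counts were 162, 44 and 1 (Fcgbp), and after Benjamini-Hochberg adjustment of that test 0, 0 and 0, with 1068 genes at an unadjusted p under 0.05. At an adjusted limma p under 0.05 they were 169, 26 and 2. Requiring every array to be above background gave 322 higher genes and 2 of the 6 secretory genes that could then be tested. The count of lower genes was 277 with all 12 arrays in the fit and 57 with normexp, and array weights gave 1942 higher and 1617 lower. Leaving out each rat in turn gave 322 to 961 higher genes, 59 to 747 lower genes and 2 to 6 of the 10 genes called higher: 2 without D21 rat 2 and 3 without D21 rat 4. The cause of these shifts was not tested. Centring on the columnar epithelial markers, an alternative chosen after seeing the data, gave 223 higher and 1087 lower genes and 5 of the 10. Differences that changed sign were those of Galnt6 with normexp (−0.09) and columnar centring (−0.43), of Pigr and Clca4 with array weights (0.17 and 0.92), and of Pigr and Clca4 without NP rat 6 (0.03 and 0.32; leaving out each rat gave −1.62 to 0.03 and −2.18 to 0.32). Fcgbp and Gp2 were called in every limma fit that could test them at the unadjusted limit. Slide and scan day divide the depleted arrays in the same way, so a block of either is the same check. D21 rat 1 was alone in its block and so did not enter the blocked differences. That block, other probes of a gene and the authors' values left the count at 6. Normexp, quantile normalization and the percentile of detected probes gave 4, 5 and 4. No paired analysis was possible because the depleted D21 and NP rats share no replicate number. Signal over background limits the NP values of Gp2, Guca2b, Scgb3a1 and Ffar4, which are mostly upper bounds.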
